A study of Mus musculus with 6 samples.

Results

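Macrophages and other leukocytes of the heart were followed through 33 genes in ventricular myocardium of *Dst-b* mutant and WT mice. The genes are a list of symbols: *Ptprc*, *Laptm5* and *Cd53*, which mark leukocytes; *Cd68*, *Csf1r*, *Cd14*, *Lyz2*, *Mrc1*, *Lgals3*, *Cd163*, *Lyve1*, *Aif1*, *Cx3cr1*, *Ccr2*, *Itgam* and *Cybb* of macrophages and monocytes; *C1qa*, *C1qb* and *C1qc* of complement C1q; *Fcer1g*, *Tyrobp*, *Fcgr3* and *Fcgr2b* of Fc receptors and their adaptors; *Cd74*, *H2-Aa*, *H2-Ab1* and *H2-Eb1* of MHC class II; and *H2-K1*, *H2-D1*, *B2m*, *Tap1*, *Tap2* and *Tapbp* of MHC class I. All 33 were among the 13003 genes with values in the libraries, and all 33 passed the filter on low counts into the 12955 genes tested. The first 23 are called the macrophage side here and the last 10 the antigen presentation genes.

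The 3 *Dst-b* mutant mice, labelled replicates 1, 2 and 3, were homozygous for a nonsense allele in an exon used by *Dst-b* alone, the muscle isoform of the cytoskeletal linker dystonin, and were bred from heterozygous parents. The 3 WT mice, labelled replicates 1, 3 and 4, carried no such allele. All 6 were on C57BL/6J, all were 14 to 19 months old, and each gave 1 library of poly-A RNA. The allele is present in every cell of the animal and was kept in several independent lines in the study, without the line or the sex of the mouse behind each library. Because the samples were whole ventricle, fewer cells of a type and less RNA per cell cannot be told apart.

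Resident macrophages are spread through the healthy heart, where they clear debris and dying cells and carry scavenger receptors such as those encoded by *Cd163* and *Mrc1*, while *Ccr2* marks those that come from blood monocytes. MHC class II molecules, made mainly by macrophages, dendritic cells and B cells, show peptides from engulfed material to CD4+ T cells. MHC class I molecules are on nearly all nucleated cells and show peptides from inside the cell to CD8+ T cells, so class I transcripts in ventricle come from muscle, vessels and fibroblasts as well as from leukocytes.

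The class I and class II genes are known to share a promoter module of S, X and Y boxes. The Y box is an inverted CCAAT element that NF-Y binds, and CIITA works through the module on class II genes. The 150 bases before the annotated start of 5 of the 10 antigen presentation genes are shown because each holds the letters GATTGG, or CCAATC on the other strand, which were searched as the Y box. The sequences are from RefSeq on GRCm38.p6, written 5′ to 3′ on the strand of the gene, with the letters found in capitals. In *H2-K1* and *H2-D1*, and at the later match in *H2-Eb1*, these letters are CCAATC, which is not the inverted element. They may therefore not be the Y box. *H2-K1* and *H2-D1* also hold attgg in lower case, an inverted CCAAT that the search did not cover. They lie at chr17:34287824-34287973 on the minus strand for *H2-Aa*, chr17:34305717-34305866 on the plus strand for *H2-Eb1*, chr17:34000334-34000483 on the minus strand for *H2-K1*, chr17:35262944-35263093 on the plus strand for *H2-D1* and chr2:122147537-122147686 on the plus strand for *B2m*.
H2-Aa: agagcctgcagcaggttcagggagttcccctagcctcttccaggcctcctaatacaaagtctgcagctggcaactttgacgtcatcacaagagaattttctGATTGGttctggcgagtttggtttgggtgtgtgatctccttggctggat
H2-Eb1: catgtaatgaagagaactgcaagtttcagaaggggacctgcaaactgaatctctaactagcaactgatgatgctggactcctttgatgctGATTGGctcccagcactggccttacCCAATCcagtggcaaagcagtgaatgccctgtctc
H2-K1: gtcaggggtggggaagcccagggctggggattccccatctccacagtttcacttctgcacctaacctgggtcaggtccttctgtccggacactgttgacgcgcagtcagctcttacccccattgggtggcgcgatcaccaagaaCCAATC
H2-D1: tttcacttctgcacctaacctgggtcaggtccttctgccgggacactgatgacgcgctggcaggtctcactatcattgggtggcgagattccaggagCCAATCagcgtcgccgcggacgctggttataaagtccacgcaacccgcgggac
B2m: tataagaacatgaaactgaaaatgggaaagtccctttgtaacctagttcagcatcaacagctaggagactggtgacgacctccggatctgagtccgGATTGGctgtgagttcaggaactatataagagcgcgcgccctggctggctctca
Distances to the start were counted from the first letter of the first match, with its 6 letters included. They were 49 bases in *H2-Aa*, 60 in *H2-Eb1*, 53 in *H2-D1* and 54 in *B2m*. The distance was 6 in *H2-K1*, which has 2 annotated starts and is shown for one of them. A promoter was given for 25 of the 33 genes, 7 of them antigen presentation genes, and 5 of these 7 held GATTGG or CCAATC. The letters stood in 3 of 18 promoters of the macrophage side and in 12.6% of the promoters of 27025 genes in windows of the same length. The letters GAGGAA on either strand, the core that the myeloid factor PU.1 binds, stood in 7 of the 18 promoters of the macrophage side (*Laptm5*, *Cd53*, *Mrc1*, *Aif1*, *Itgam*, *C1qb* and *Fcgr3*), in 0 of the 7 of antigen presentation and in 16.4% of all. The X box letters AGCAAC on either strand were in *H2-Eb1* and *Cd68* and in 8.96% of all. These matches describe letters and were not tested for binding.

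The libraries held 40693854 to 57580110 tags each. Mutant replicate 2 stood apart by its sex genes: *Xist*, the RNA of the inactive X chromosome, had 204 CPM (the count relative to the TMM-scaled total of its library) there and 0.0246 to 0.299 CPM in the other 5 libraries, and the Y-linked *Ddx3y* had 0 CPM there and 113 to 138 CPM elsewhere. Red cell transcripts also varied, with *Hba-a2* at 55.0, 124 and 77.9 CPM in mutant replicates 1, 2 and 3 and at 23.4, 160 and 67.1 CPM in WT replicates 1, 3 and 4. The cardiomyocyte marker *Myh6*, the cardiac alpha myosin heavy chain, reached 25358 to 31732 CPM in all 6 libraries. Few defining markers of other leukocytes were listed, 0 of 5 for B cells and 0 of 4 for NK cells. For T cells 2 of 6 summed to 2.71 to 4.24 CPM in mutant and 1.51 to 3.62 CPM in WT hearts. For neutrophils 1 of 5 had 1.19 to 2.19 CPM in mutant and 1.66 to 2.53 CPM in WT hearts. A gene that is not listed has no value here, so its level is not known. The red cell gene *Hbb-bs* and the macrophage gene *Adgre1* were not listed either. Dendritic cell markers, 3 of 5, summed to 10.6 to 12.8 CPM in mutant and 10.8 to 13.3 CPM in WT hearts. Mast cell markers, 4 of 4, summed to 9.69 to 11.3 CPM in mutant and 11.3 to 13.3 CPM in WT hearts.

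Between genes, levels were compared as RPKM, which divides by gene length, as the mean over the 6 libraries. The highest were *B2m* with 408, *Lyz2* with 241, *H2-D1* with 213, *Cd74* with 196 and *H2-K1* with 145 RPKM. *B2m*, the light chain of every class I molecule, had 360 to 473 RPKM in mutant and 368 to 435 RPKM in WT libraries and lay above each other member in each library. *H2-K1* is uncertain on this scale, since its RPKM rest on an exon length of 746 bases while the exons in the GENCODE annotation of the same build cover 2938. Other members differ too, in both directions. The lengths were 1362 against 3798 bases for *H2-Aa*, 1054 against 1931 for *C1qc* and 2802 against 1742 for *Cd53*. The 3 C1q genes lay close together, at 66.1 RPKM for *C1qa*, 57.0 for *C1qb* and 60.3 for *C1qc*. The lowest were the chemokine receptors *Cx3cr1* with 0.661 and *Ccr2* with 1.36 RPKM. *Cd163* with 10.4, *Lyve1* with 13.05 and *Mrc1* with 13.7 RPKM, scavenger and hyaluronan receptors known from resident macrophages, were above *Ccr2* by RPKM.

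**Figure D1:**
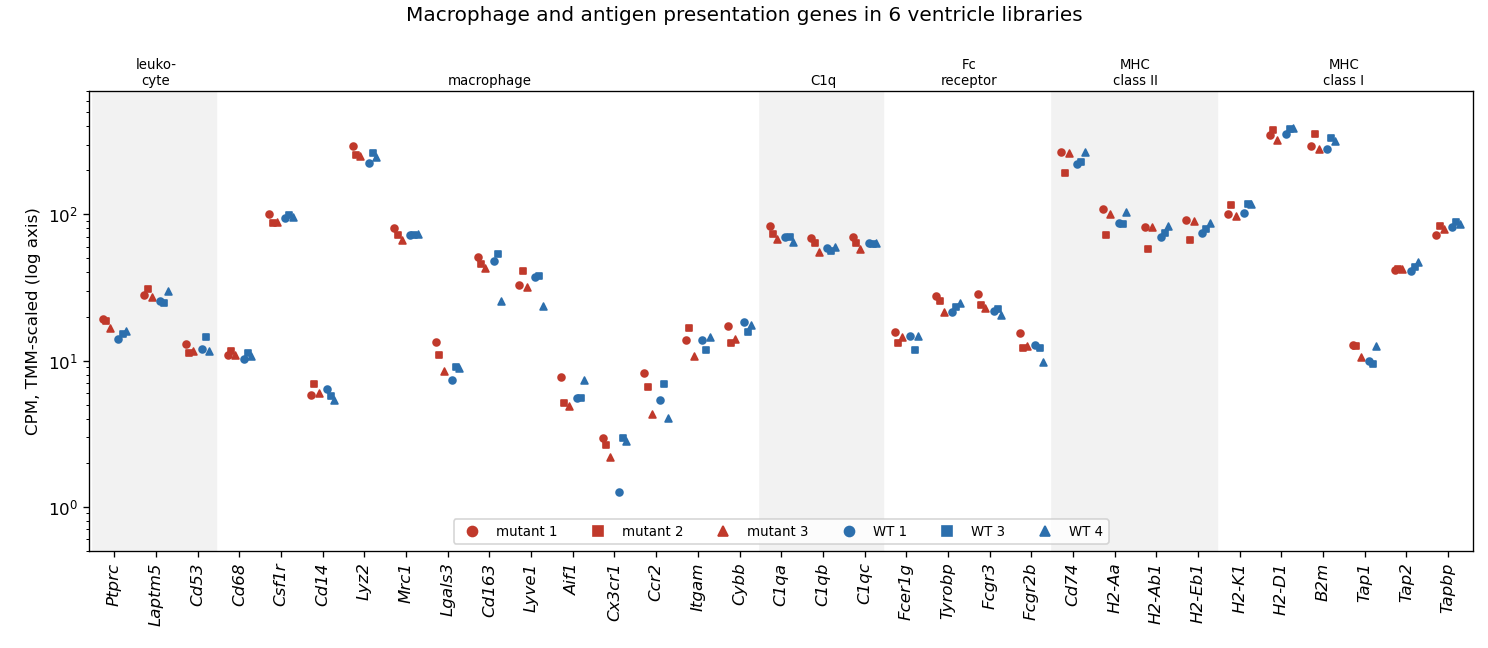
CPM of the 33 genes (log axis) in the 3 mutant (red) and 3 WT libraries (blue), 1 symbol per library, grouped by gene list. The groups overlap in 31 genes, the 2 without overlap being *Ptprc* and *Fcgr3*, and the square of mutant replicate 2 is lowest in all 4 class II genes.

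A gene was called where its p was below 0.01 and its Benjamini-Hochberg adjusted p below 0.1 in the edgeR quasi-likelihood test. None of the 33 genes was called higher in mutant hearts and none lower, against 4.64% of all genes tested in either direction, 2.8% higher and 1.84% lower. DESeq2 also called 0 of 33. At an unadjusted p under 0.05 there were 2 of 33 with either tool, *Ptprc* and *Lgals3* in edgeR, against 16.5% of all genes tested in edgeR. The values of mutant and WT hearts did not overlap in 2 of 33 genes, *Ptprc* and *Fcgr3*, both higher in mutant hearts, against 21.9% of all genes in either direction 11.4% in this one and 10.5% in the other. The lowest adjusted p of any of the 33 was 0.209.

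The sizes of change were bounded by 95% intervals of the log2 fold change, mutant over WT. These intervals lay within 1.5-fold either way for 29 of 33 genes, against 74.8% of all genes, and within 2-fold for 33 of 33, against 93.1%. The 4 genes with wider intervals were *Lgals3*, *Cd163*, *Cx3cr1* and *Ccr2*. An interval of this kind limits the size of a change and does not show that the genotypes were alike.

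**Figure D2:**
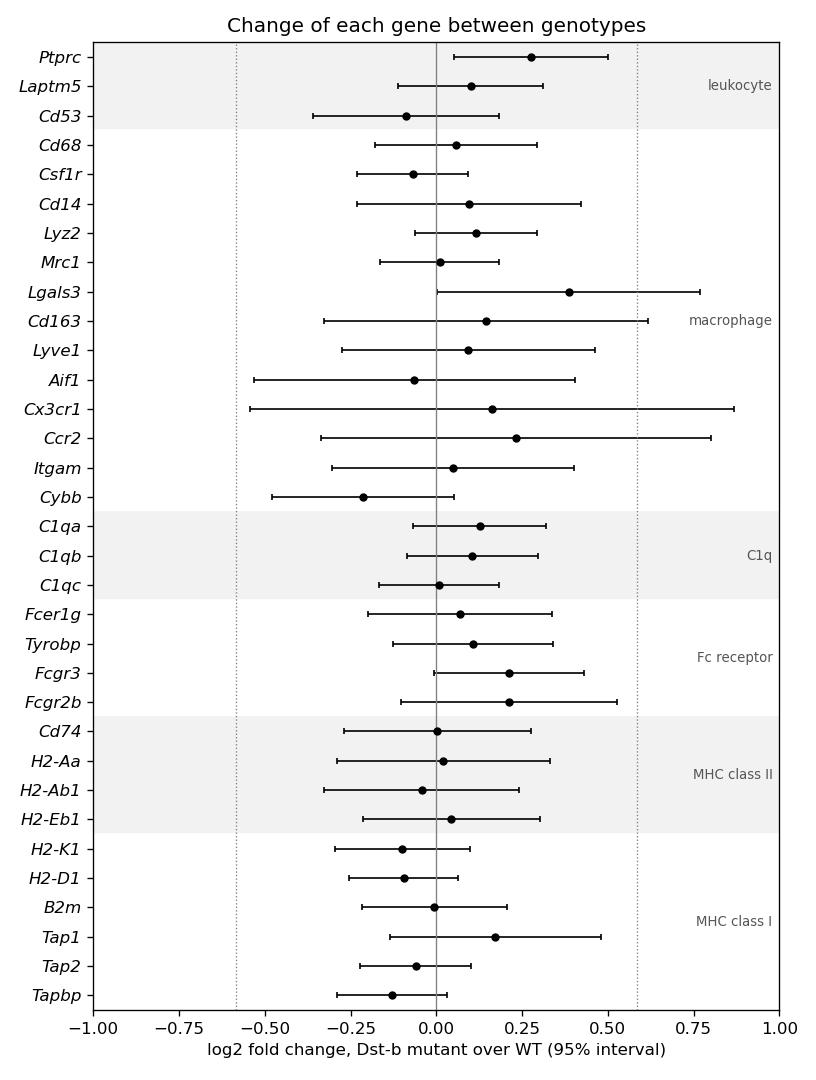
Log2 fold change, mutant over WT, of each of the 33 genes (points) with its 95% interval (bars) from the edgeR quasi-likelihood fit of 3 mutant against 3 WT libraries. Most bars cross 0, those of *Ptprc* (0.05 to 0.50) and *Lgals3* (0.00 to 0.77) lie just above it, the dotted lines mark 1.5-fold, and all 33 bars stay within 2-fold.

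The leukocyte genes had small differences of both signs. *Ptprc*, which encodes the leukocyte phosphatase CD45, had 19.3, 18.6 and 16.7 CPM in mutant replicates 1, 2 and 3, against 13.97, 15.2 and 16.0 CPM in WT replicates 1, 3 and 4. The groups did not overlap, and the nearest libraries were mutant replicate 3 at 16.7 and WT replicate 4 at 16.0 CPM. The log2 fold change of 0.28 (standard error, SE, 0.10, unadjusted p = 0.0211, adjusted p = 0.209 in the edgeR quasi-likelihood test) was not called. *Laptm5*, a lysosomal membrane protein of blood cells, had 27.9, 31.0 and 27.1 CPM in the mutant and 25.4, 24.9 and 29.8 CPM in the WT libraries. The groups overlapped, with a log2 fold change of 0.10 (SE 0.09, adjusted p = 0.656 in the edgeR quasi-likelihood test). *Cd53*, a tetraspanin of leukocytes, had 13.03, 11.2 and 11.6 CPM in mutant hearts and 12.0, 14.5 and 11.7 CPM in WT hearts. Its log2 fold change was -0.09 (SE 0.12, adjusted p = 0.772 in the edgeR quasi-likelihood test), and it became 0.01 without WT replicate 3, the highest library. The 3 genes summed to 58.8 ± 2.99 CPM in mutant and 54.5 ± 3.06 CPM in WT hearts (SD, n = 3 each).

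Among the 13 macrophage and monocyte genes, *Lyz2* and *Csf1r* stood for the abundant end. *Lyz2*, lysozyme of macrophages and granulocytes, had 293, 253 and 249 CPM in mutant replicates 1, 2 and 3 and 226, 261 and 247 CPM in WT replicates 1, 3 and 4. Mutant replicate 1 was the highest and WT replicate 1 the lowest of the 6, and the log2 fold change was 0.12 (SE 0.08, adjusted p = 0.515 in the edgeR quasi-likelihood test). *Csf1r*, the receptor on which macrophages depend for survival, had 100.1, 87.1 and 88.6 CPM in mutant hearts and 93.9, 99.6 and 95.8 CPM in WT hearts. The mutant libraries lay on both sides of the WT libraries, with a log2 fold change of -0.07 (SE 0.07, adjusted p = 0.694 in the edgeR quasi-likelihood test). *Csf1r* shares 15.1% of its exon bases with *Hmgxb3* on the other strand, and whether tags were counted by strand is not stated.

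*Lgals3*, galectin-3, which macrophages make on activation, had 13.5, 11.0 and 8.47 CPM in the mutant libraries and 7.37, 9.02 and 8.86 CPM in the WT libraries. Mutant replicates 1 and 2 were above all WT libraries and mutant replicate 3 was below 2 of them. The means were 11.0 ± 2.51 CPM in mutant and 8.42 ± 0.911 CPM in WT hearts (SD, n = 3 each). The log2 fold change of 0.39 (SE 0.17, unadjusted p = 0.0488, adjusted p = 0.299 in the edgeR quasi-likelihood test) was the largest of the 33 and was not called. It was 0.21 without mutant replicate 1 and 0.54 without mutant replicate 3.

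The other 10 macrophage and monocyte genes had log2 fold changes of -0.21 (*Cybb*, a subunit of the phagocyte oxidase) to 0.23 (*Ccr2*), with adjusted p of 0.411 to 0.966 in the edgeR quasi-likelihood test. *Cybb* had 17.2, 13.3 and 14.1 CPM in mutant replicates 1, 2 and 3, against 18.4, 15.8 and 17.5 CPM in WT replicates 1, 3 and 4. *Ccr2*, the receptor for monocyte chemokines, had 8.28, 6.59 and 4.34 CPM in mutant hearts and 5.39, 6.95 and 4.06 CPM in WT hearts, so the groups overlapped. *Mrc1*, the mannose receptor, averaged 73.3 ± 7.01 CPM in mutant and 72.8 ± 0.504 CPM in WT hearts (SD, n = 3 each), and *Cd68*, a lysosomal protein of macrophages, 11.2 ± 0.436 and 10.8 ± 0.574 CPM.

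*Cd163* and *Lyve1* are singled out after their values were seen, for 1 low WT library. *Cd163*, the receptor for haemoglobin bound to haptoglobin, had 51.2, 45.8 and 43.3 CPM in the mutant libraries and 48.0, 53.3 and 25.7 CPM in WT replicates 1, 3 and 4. *Lyve1*, a hyaluronan receptor on resident macrophages and lymphatic vessels, had 32.6, 40.8 and 31.9 CPM in the mutant libraries and 37.4, 37.7 and 23.8 CPM in the WT libraries. WT replicate 4 was lowest for both. Of 13 tested growth factors and chemokines WT replicate 4 was lowest for 4, among them *Ccl9* at 11.4 CPM and *Ccl6* at 25.2 CPM, and highest for 2, *Cxcl9* at 8.95 CPM and *Cxcl12* at 213 CPM. Of 37 further macrophage genes it was lowest for 8 and highest for 5, among them *Timd4*, a marker of resident macrophages, at 4.26 CPM. The 3 lymphatic endothelial markers (*Prox1*, *Pdpn* and *Flt4*) summed to 61.5 CPM in WT replicate 4, the highest of the 6 libraries. Of the 23 genes of the macrophage side WT replicate 4 was lowest for 7 and highest for 0. Besides *Cd163* and *Lyve1* the 7 were *Cd14*, *Ccr2*, *C1qa*, *Fcgr3* and *Fcgr2b*. WT replicate 4 was the lowest library for 21.6% of all genes tested and the highest for 21.4%. In the same library *Csf1r* and *Mrc1* were within the range of the other libraries.

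*Itgam*, a chain of the integrin CD11b/CD18, is uncertain: 68.7% of its exon bases are shared with *Gm49368* on the same strand. It had 13.7, 16.8 and 10.8 CPM in mutant hearts and 13.8, 11.7 and 14.5 CPM in WT hearts. *Cx3cr1*, the fractalkine receptor, was the least abundant, with 2.97, 2.63 and 2.18 CPM in mutant and 1.26, 2.93 and 2.81 CPM in WT hearts. *Cd14*, a coreceptor for lipopolysaccharide, averaged 6.25 ± 0.554 and 5.85 ± 0.517 CPM in mutant and WT hearts, and *Aif1*, which encodes Iba1, 5.91 ± 1.61 and 6.18 ± 1.07 CPM (SD, n = 3 each).

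The C1q genes lie side by side on chromosome 4 and encode the chains of the complement protein C1q, which tissue macrophages make. *C1qa* (chr4:136895916-136898844) had 83.8, 73.0 and 67.3 CPM in mutant replicates 1, 2 and 3, against 70.4, 70.1 and 64.8 CPM in WT replicates 1, 3 and 4. The log2 fold change was 0.13 (SE 0.09, adjusted p = 0.514 in the edgeR quasi-likelihood test). *C1qc* (chr4:136889801-136892936) had 69.9, 63.5 and 57.9 CPM in the mutant and 63.9, 62.5 and 63.8 CPM in the WT libraries, with means of 63.8 ± 6.02 and 63.4 ± 0.750 CPM (SD, n = 3 each) and a log2 fold change of 0.01 (SE 0.08, adjusted p = 0.972 in the edgeR quasi-likelihood test). All 3 genes were highest in mutant replicate 1, and their sum was 223, 200.3 and 181 CPM in the mutant libraries and 193, 189 and 189 CPM in the WT libraries, so the mutant mice spread around a narrow WT range.

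The Fc receptor genes had positive fold changes, none of them called. *Tyrobp*, the adaptor DAP12, had 27.5, 25.6 and 21.6 CPM in mutant hearts and 21.4, 23.2 and 24.7 CPM in WT hearts, with a log2 fold change of 0.11 (SE 0.10, adjusted p = 0.664 in the edgeR quasi-likelihood test). *Fcer1g*, the common gamma chain of Fc receptors, had 15.8, 13.2 and 14.4 CPM in mutant hearts and 14.7, 11.8 and 14.8 CPM in WT hearts, with a log2 fold change of 0.07 (SE 0.12, adjusted p = 0.829 in the edgeR quasi-likelihood test). In both genes mutant and WT libraries overlapped. *Fcgr3*, an activating receptor for IgG, is named after its values were seen because its groups did not overlap: 28.4, 24.1 and 22.9 CPM in mutant hearts against 21.8, 22.6 and 20.6 CPM in WT hearts. The closest libraries, mutant replicate 3 and WT replicate 3, were 22.9 and 22.6 CPM, and the log2 fold change was 0.21 (SE 0.10, adjusted p = 0.321 in the edgeR quasi-likelihood test). *Fcgr2b*, the inhibitory IgG receptor, averaged 13.4 ± 1.85 CPM in mutant and 11.6 ± 1.65 CPM in WT hearts (SD, n = 3 each).

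Mutant replicate 1 was the highest library for 15 of the 23 genes of the macrophage side and the lowest for 0. Over all genes tested it was highest for 15.6%. The 23 genes summed to 1008, 908 and 849 CPM in mutant replicates 1, 2 and 3, against 861, 907 and 852 CPM in WT replicates 1, 3 and 4, so mutant replicate 1 lay above the other 5 libraries and mutant replicate 3 below them. The log2 fold changes were positive in 19 of 23 genes, against 50% of all genes tested, with a median of 0.10, against 0.00 for all genes. Without mutant replicate 1 the log2 fold change was 0.04 for *Lyz2*, 0.04 for *C1qa* and 0.03 for *Tyrobp*. In that fit the median was 0.04 and 17 of 23 were positive, without mutant replicate 2 it was 0.08 and 18 were positive, and over the 6 fits that left out 1 library the median ran from 0.04 to 0.16.

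**Figure D3:**
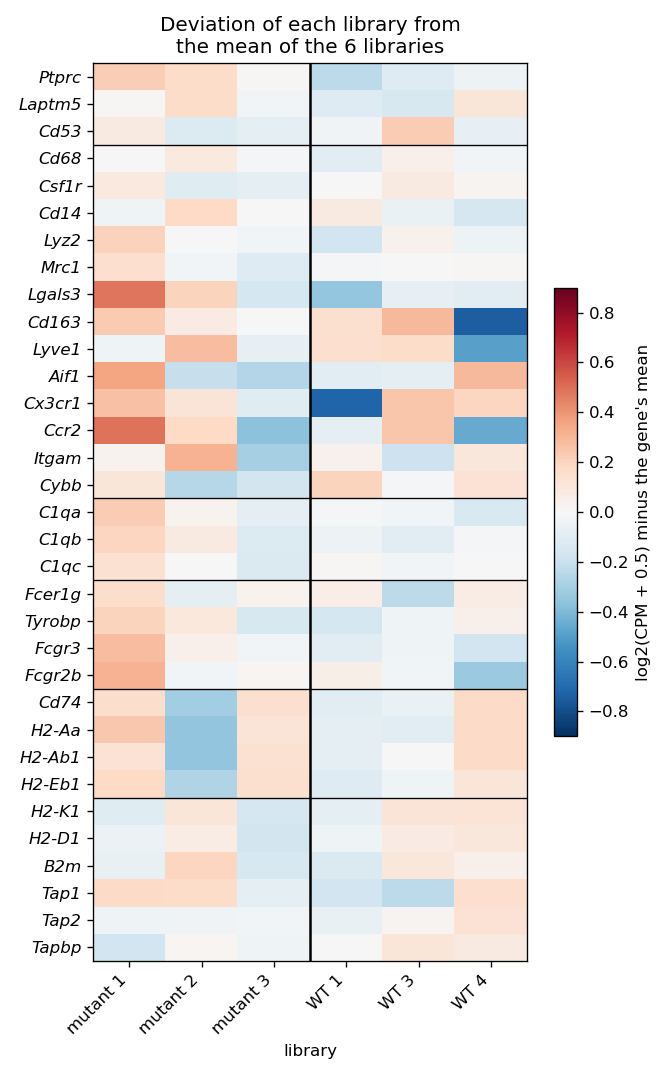
Deviation of each library, log2(CPM + 0.5) minus the mean of the gene over the 6 libraries, for the 33 genes (rows, grouped by list) in the mutant libraries (left of the line) and the WT libraries. Mutant replicate 1 is red through most of the upper rows, mutant replicate 2 is blue in the 4 class II rows, and WT replicate 4 is dark blue in *Cd163* and blue in *Lyve1*.

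The MHC class II genes averaged nearly the same in both genotypes and varied together between mice. *Cd74*, the invariant chain that guides class II molecules to the endosome, had 265, 191 and 263 CPM in mutant replicates 1, 2 and 3, against 222, 228 and 269 CPM in WT replicates 1, 3 and 4. The log2 fold change was 0.00 (SE 0.12, adjusted p = 0.995 in the edgeR quasi-likelihood test). *H2-Aa* (chr17:34282744-34287823), the alpha chain of I-A, had 109, 72.0 and 99.9 CPM in mutant hearts and 86.7, 86.2 and 104 CPM in WT hearts, with a log2 fold change of 0.02 (SE 0.14, 95% interval -0.29 to 0.33, adjusted p = 0.960 in the edgeR quasi-likelihood test). *H2-Ab1*, the beta chain of I-A, averaged 73.8 ± 13.7 CPM in mutant and 76.0 ± 7.0 CPM in WT hearts, and *H2-Eb1*, the beta chain of I-E, 82.6 ± 13.7 and 80.1 ± 6.40 CPM (SD, n = 3 each).

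Mutant replicate 2 was the lowest of the 6 libraries in all 4 class II genes. Its CPM was 76.8% of the mean of the other 5 libraries for *Cd74*, 74.0% for *H2-Aa*, 74.2% for *H2-Ab1* and 79.4% for *H2-Eb1*. It was the lowest library for 16.6% of all genes tested. It is also the library with *Xist* and without *Ddx3y*, and the part of sex in the class II level was not tested. Without mutant replicate 2 the log2 fold change was 0.14 for *Cd74* and 0.18 for *H2-Aa*, with adjusted p = 0.495 and 0.428 in the edgeR quasi-likelihood test, and the median of the 4 was 0.15, against 0.01 with all 6 libraries. Without mutant replicate 1 that median was -0.09. *Ciita*, the coactivator that class II genes need, had 2.94, 2.07 and 3.30 CPM in mutant hearts and 2.29, 1.80 and 4.17 CPM in WT hearts. Its low libraries were mutant replicate 2 and WT replicate 3, on fewer tags than any of the 4 class II genes, and its log2 fold change was 0.00 (adjusted p = 0.998 in the edgeR quasi-likelihood test).

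Of the 6 class I genes, 5 had negative log2 fold changes, and *Tap1* a positive one, with a median of -0.08 and no call. Over the 6 fits without 1 library that median ran from -0.14, without mutant replicate 2, to -0.04, without WT replicate 4, and it was also -0.04 without mutant replicate 3. *H2-D1* (chr17:35263094-35267497), a heavy chain, had 349, 379 and 323 CPM in mutant replicates 1, 2 and 3, against 353, 381 and 389 CPM in WT replicates 1, 3 and 4, with a log2 fold change of -0.09 (SE 0.07, 95% interval -0.25 to 0.06, adjusted p = 0.556 in the edgeR quasi-likelihood test). *B2m* had 294, 354 and 279.8 CPM in mutant hearts and 282, 332 and 318 CPM in WT hearts, with a log2 fold change of -0.01 (SE 0.09, 95% interval -0.22 to 0.21, adjusted p = 0.983 in the edgeR quasi-likelihood test). For both genes mutant replicate 3 was the lowest library. *H2-K1*, the other heavy chain, averaged 105 ± 10.3 CPM in mutant and 112 ± 9.23 CPM in WT hearts (SD, n = 3 each). Of the stretches of 100 bases in the transcripts, 3.59% in *H2-D1* and 0.957% in *H2-K1* also occur in other class I genes, so a small part of their tags could be split between copies.

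The peptide transport genes lie in the same region of chromosome 17. *Tap1* and *Tap2*, the chains of the transporter that brings peptides into the endoplasmic reticulum, averaged 12.0 ± 1.22 and 42.1 ± 0.213 CPM in mutant hearts, against 10.6 ± 1.66 and 43.9 ± 3.05 CPM in WT hearts (SD, n = 3 each). *Tapbp*, tapasin, which holds class I molecules at that transporter, had 72.2, 82.7 and 79.2 CPM in mutant hearts and 81.9, 88.0 and 86.4 CPM in WT hearts. Its log2 fold change of -0.13 (SE 0.07, adjusted p = 0.406 in the edgeR quasi-likelihood test) was the most negative of the class I genes. Of the exon bases, 24.9% of *Tapbp* and 18.5% of *Tap2* are also covered by genes on the other strand.

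Class II and class I genes did not share their pattern between mice. The class II sum was 547, 388 and 534 CPM in mutant replicates 1, 2 and 3, against 453, 467 and 544 CPM in WT replicates 1, 3 and 4. The class I sum was 870.5, 987 and 832 CPM in the mutant libraries, against 869, 972 and 971 CPM in the WT libraries. Mutant replicate 2 thus had the lowest class II sum and the highest class I sum, the latter by a small margin. By gene it was lowest in all 4 class II genes but highest in only 1 of the 6 class I genes, *B2m*. WT replicate 4 was highest in 3 of the 6. Relative to the sum of the macrophage side, class II stood at 0.543, 0.427 and 0.629 in mutant hearts and at 0.527, 0.515 and 0.638 in WT hearts, and class I at 0.864, 1.09 and 0.980 in mutant hearts and at 1.01, 1.07 and 1.14 in WT hearts. Both ratios overlapped between the genotypes. The antigen presentation genes as a whole had 4 positive and 6 negative log2 fold changes, with a median of -0.02, and all 10 had 95% intervals within 1.5-fold.

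**Figure D4:**
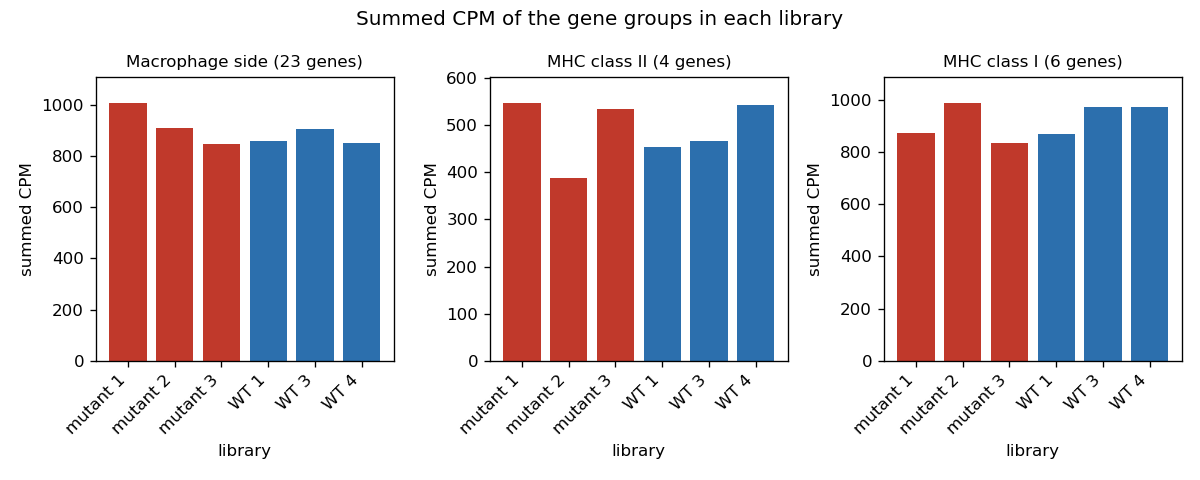
Summed CPM per library of the macrophage side (23 genes), the class II genes (4) and the class I genes (6), with the mutant libraries left of the WT libraries. Each bar is 1 library, and the class II bar of mutant replicate 2, at 388 CPM, is the lowest of its panel.

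Other genes of the same pathways, from lists written with earlier results of these data known, were mostly not called. Of 10 tested genes of the class II pathway, among them the coactivator *Ciita*, 0 were called. The smallest p were those of *H2-DMa*, a chain of the peptide editor DM, with 7.06 ± 0.920 CPM in mutant and 5.47 ± 0.905 CPM in WT hearts, and of *Lgmn*, the lysosomal protease legumain, with 138 ± 5.33 and 127 ± 6.86 CPM (SD, n = 3 each), at adjusted p = 0.320 and 0.377 in the edgeR quasi-likelihood test. Of 20 tested genes of the class I pathway 1 was called higher and 0 lower. This was *Mr1*, the class I-like molecule that shows vitamin B metabolites to MAIT cells, with 20.4, 19.3 and 15.4 CPM in mutant hearts against 12.95, 13.1 and 13.7 CPM in WT hearts. The groups did not overlap, at a log2 fold change of 0.47 (SE 0.12, adjusted p = 0.0709 in the edgeR quasi-likelihood test). Most of the 20 went the other way, with 12 negative and 8 positive log2 fold changes. Without overlap between the groups were 6 genes lower in mutant hearts and 2 higher, against 10.5% and 11.4% of all genes tested. The most negative was *Nlrc5*, at a log2 fold change of -0.31 (adjusted p = 0.350 in the edgeR quasi-likelihood test).

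Of 37 further tested macrophage genes 2 were called higher and 0 lower. *Msr1*, a scavenger receptor for modified lipoproteins, averaged 7.74 ± 0.483 CPM in mutant and 5.26 ± 0.635 CPM in WT hearts (SD, n = 3 each), a log2 fold change of 0.56 (SE 0.15, adjusted p = 0.0839 in the edgeR quasi-likelihood test). *Ncf4*, a cytosolic subunit of the phagocyte oxidase, averaged 3.87 ± 0.260 and 2.26 ± 0.353 CPM (SD, n = 3 each), a log2 fold change of 0.78 (SE 0.20, adjusted p = 0.0836 in the edgeR quasi-likelihood test). Of 13 tested growth factors and chemokines of macrophages 1 was called higher and 0 lower: *Spp1*, osteopontin, a matrix protein that macrophages and fibroblasts secrete, at 2.50 ± 0.473 CPM in mutant and 1.30 ± 0.219 CPM in WT hearts (SD, n = 3 each), a log2 fold change of 0.95 (SE 0.26, adjusted p = 0.0935 in the edgeR quasi-likelihood test). The chemokine *Ccl5* had values but did not pass the filter on low counts. It had 132, 110 and 38 tags in mutant replicates 1, 2 and 3, against 37, 13 and 20 in WT replicates 1, 3 and 4. The paper lists it among its upregulated genes. Over all genes tested 2.8% were called higher. Leaving out single libraries ended these calls: the adjusted p ran from 0.105 to 0.299 for *Msr1*, from 0.126 to 0.278 for *Ncf4* and from 0.109 to 0.334 for *Spp1* over the 6 such fits, and *Mr1* stayed called in the fit without mutant replicate 3 (0.0374) and reached 0.116 to 0.289 in the other 5. Of 7 fibroblast markers 1 was called higher and 0 lower: *Col1a1*, a chain of type I collagen, at 168, 181 and 159 CPM in mutant hearts against 122, 132 and 115 CPM in WT hearts, a log2 fold change of 0.46 (adjusted p = 0.0125 in the edgeR quasi-likelihood test). The other 6 had log2 fold changes of -0.25 (*Tcf21*) to 0.68 (*Postn*), with 0.18 for *Col1a2* and -0.05 for *Dcn*, at adjusted p of 0.171 to 0.813 in the same test. The 7 summed to 1761 to 2084 CPM in mutant and 1740 to 1943 CPM in WT hearts, and the part of fibroblasts in the 4 calls above was not tested. Of 6 endothelial markers 0 were called, with 5 negative log2 fold changes and 1 positive. The groups did not overlap in 3 of the 6, lower in mutant hearts, against 10.5% of all genes tested. The 6 summed to 919 to 1027 CPM in mutant and 910 to 1072 CPM in WT hearts. The part of vessels in the class I levels was not tested.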

How the data were processed

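Ventricular RNA of 3 *Dst-b* mutant and 3 WT mice was sequenced. Per the methods, the authors used OLego to map reads to GRCm38/mm10 and Quantas to quantify genes; the tool versions are not given in the sources used here. For the library kit, the labels give NEBNext Ultra II Directional and the methods give TruSeq. The deposited files hold, per gene, an estimated count of tags, rounded here before testing, and an RPKM computed by the authors, used here only to compare levels between genes. Depth was 40693854 to 57580110 tags.

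Genes reaching 1 CPM in 3 or more of 6 libraries were tested with edgeR 4.0.16 (R 4.3.3), with TMM scaling, genotype as the only term and the two-sided quasi-likelihood test, with Benjamini-Hochberg adjustment over 12955 genes. Calls needed p under 0.01 and adjusted p under 0.1. Tests were tested on simulated data. Each library came from 1 mouse. The members and lists were chosen with earlier results of these data known. Genes given in full were those called or with unadjusted p under 0.05, and the 2 with the highest mean RPKM in each of the 6 lists. From each pathway list, up to 4 called genes, or the 2 with the smallest p, were named. Alternatives were RLE scaling, no filter, a bar of 5 for the mean CPM, DESeq2 1.42.0, an adjusted p under 0.05 alone, a replicate block and leaving out each library. Positions and promoters were from RefSeq GRCm38.p6, the same build. Exon bases, their overlaps and shared stretches were from the GENCODE annotation of that build. Plots used Python 3.11.15, pandas 2.3.3 and matplotlib 3.10.9.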

Additional observations from a re-analysis of the deposited data

How the results depend on the processing

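The count of 0 called among the 33 genes was the same under RLE scaling, without a filter, with a bar of 5 for the mean CPM (which left out *Cx3cr1*), with DESeq2, at an adjusted p under 0.05 alone and in each fit without 1 library. Over those fits without 1 library the lowest adjusted p of any of the 33 was 0.149 in the edgeR quasi-likelihood test. Over all genes tested, 601 were called, against 1028 with DESeq2, 304 at an adjusted p under 0.05 alone and 141 to 489 without 1 library, the lowest without mutant replicate 1. The log2 fold change of *Cd74* was -0.00035 under RLE scaling and -0.00029 with DESeq2. Without 1 library 14 of the 33 log2 fold changes changed sign in 1 fit or more and 19 did not. Of the genes given in full these ranges were -0.16 to 0.011 for *Cd53*, -0.063 to 0.073 for *C1qc*, -0.030 to 0.13 for *Fcer1g*, -0.075 to 0.14 for *Cd74*, -0.10 to 0.18 for *H2-Aa* and -0.12 to 0.062 for *B2m*. The other sign changes ranged from -0.067 to 0.069 for *Mrc1*, -0.11 to 0.34 for *Cd163*, -0.095 to 0.20 for *Lyve1*, -0.31 to 0.087 for *Aif1*, -0.15 to 0.36 for *Cx3cr1*, -0.13 to 0.20 for *Itgam*, -0.12 to 0.10 for *H2-Ab1* and -0.036 to 0.17 for *H2-Eb1*. The cause was not tested. The shared replicate numbers 1 and 3 do not pair the mice by the labels, and deviations of same-numbered mice correlated at 0.0072 and -0.0492 across genes. Number 2 belongs to a mutant library alone and number 4 to a WT library alone. A block on these numbers therefore takes the genotype difference from replicates 1 and 3 only. Mutant replicate 2, lowest in all 4 class II genes, and WT replicate 4, highest in 2 of them, do not enter that difference. With the numbers as a replicate block, 966 genes were called over all tested and 1 of the 33, which was 1 of the 10 antigen presentation genes and 0 of the macrophage side: *H2-Aa*, at a log2 fold change of 0.27 and adjusted p = 0.0742 in the edgeR quasi-likelihood test. The other class II genes had log2 fold changes of 0.23 (*Cd74*), 0.24 (*H2-Eb1*) and 0.18 (*H2-Ab1*) with the block, none called, and the median of the 4 was 0.24, against 0.01 without it. The block also ended the calls of *Msr1* and *Ncf4*. Of the 33 genes *Cx3cr1*, the one with the lowest CPM, had the widest 95% interval, -0.54 to 0.87.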
